A study of Mus musculus with 6 samples.

Results

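The 36 genes described here belong to Toll-like receptor and NF-kB signalling: 3 receptors, the MyD88 adaptor with its IRAK kinases and Traf6, the IKK complex, the NF-kB subunits, the IkB family, and feedback and effector genes that the pathway induces. They were taken by symbol from the 43629 gene IDs of the count table. Each symbol matched 1 row, none was at 0 in any library, and all 36 passed the filter on low counts that left 15432 tested genes. The RNA was taken from C57BL/6 marrow at the end stage of leukaemia, from cells that had been frozen, thawed and sorted for c-kit. Cbfb-MYH11, the fusion gene of inversion 16 leukaemia, was carried as a knockin in both groups. Of the 6 libraries, replicates 3, 5 and 6 were Gata2+/+ and replicates 7, 9 and 11 were Gata2+/f, with 1 intact allele and 1 that the labels write as f. What the f allele changes, and what drives recombination of any allele, is not given in the sources used here. The comparison asks how these transcripts differ when leukaemia arises with less Gata2, a zinc finger factor of blood progenitors and mast cells.

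Toll-like receptors are membrane sensors of microbial products. Most of them signal through MyD88, IRAK kinases and the ubiquitin ligase Traf6 to the IKK complex, which marks IkB proteins for destruction and so frees NF-kB dimers to enter the nucleus. Among the first genes that NF-kB switches on are its own brakes, such as Nfkbia and Tnfaip3. In marrow, receptors of this family are best known from monocytes, macrophages and neutrophils.

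Both groups held between 53789568 and 67854631 counts per library. Gata2 itself was at 886, 887 and 737 CPM (a gene's count relative to its TMM-scaled library size) in Gata2+/+ replicates 3, 5 and 6, and at 498, 273 and 264 CPM in Gata2+/f replicates 7, 9 and 11. Kit, the receptor used for the sort, was present in every library, at 826 to 1466 CPM in the Gata2+/+ libraries and 175 to 328 CPM in Gata2+/f. Summed late neutrophil markers were at 150 to 427 CPM in the Gata2+/+ libraries and 3747 to 7519 CPM in Gata2+/f. By an unadjusted p below 0.05 in edgeR's test 13 of 13 were higher, beside 11.1% of all genes, and 0 of 13 were at 0 in any library. Mast cell and basophil markers, a list of 13 that holds Gata2 and Kit themselves, ran the other way, at 10970 to 13112 against 1328 to 4140 CPM. Of the 12 tested, 8 were lower and 1 higher, beside 11.5% and 11.1% of all genes. Up to 3 of the 13 listed were at 0 in a Gata2+/f library. In bulk libraries, fewer cells of a type and less RNA per cell cannot be told apart. By Xist and Y-linked transcripts each group held libraries of both sexes, and so of more than 1 mouse. The labels do not say whether every library came from a separate mouse. Thus p-values measure the spread between these libraries, which may be technical in part.

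Start-proximal sequences are shown first for 1 receptor and 3 feedback genes, chosen because their windows hold a match to the binding motif of NF-kB, through which such genes close the feedback loop. RefSeq windows on GRCm38.p6, from 250 bases before to 50 after an annotated start, were found for 29 of the 36 genes (none for Cd83, Ikbkb, Nfkb1, Nfkbiz, Relb, Tlr4 and Tlr7). They were searched on both strands for the kappaB consensus, the 10-base motif of NF-kB dimers. A match stood in a window of 13 of the 29 genes (44.8%), against 9.55% of all 27025 genes with windows of that length. The list was chosen to hold genes that the pathway induces, so setting these shares side by side is no test. The window of Zc3h12a, a feedback gene described further on, held none. A match describes letters, not binding. Each stretch below runs 5′ to 3′ on the gene's own strand, from 200 bases before to 10 after the RefSeq start, with matches in capitals (overlapping matches are joined).
Tlr2 (chr3:83841599-83841808, minus strand): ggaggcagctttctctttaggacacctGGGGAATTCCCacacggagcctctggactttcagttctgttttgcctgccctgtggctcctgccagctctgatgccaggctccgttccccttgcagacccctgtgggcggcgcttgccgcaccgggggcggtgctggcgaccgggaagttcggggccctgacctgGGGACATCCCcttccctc
Tnfaip3 (chr10:19015401-19015610, minus strand): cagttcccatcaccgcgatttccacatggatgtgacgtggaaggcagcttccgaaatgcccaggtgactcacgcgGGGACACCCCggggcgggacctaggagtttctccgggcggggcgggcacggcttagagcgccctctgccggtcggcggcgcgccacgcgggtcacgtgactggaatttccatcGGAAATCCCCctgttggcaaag
Tnip1 (chr11:54962931-54963140, minus strand): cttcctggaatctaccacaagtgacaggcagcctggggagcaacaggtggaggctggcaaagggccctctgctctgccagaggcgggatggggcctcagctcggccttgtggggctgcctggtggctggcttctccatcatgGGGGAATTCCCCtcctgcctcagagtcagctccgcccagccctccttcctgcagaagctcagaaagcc
Nfkbia (chr12:55492638-55492847, minus strand): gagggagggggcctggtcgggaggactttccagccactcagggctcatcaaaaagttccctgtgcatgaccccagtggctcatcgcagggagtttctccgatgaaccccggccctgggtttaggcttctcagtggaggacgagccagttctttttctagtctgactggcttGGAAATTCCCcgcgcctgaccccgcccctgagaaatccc
The Tnip1 match reads the same on both strands and lies 58 to 47 bases before the start. That of Nfkbia lies 29 to 20 bases before it. Tlr2 and Tnfaip3 each hold 2 matching stretches. Among the 13 genes with a match, 5 had a positive and 8 a negative log2 fold change in Gata2+/f, so genes with a match lay on both sides.

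The members did not move as 1 block. The 3 receptors lay higher in Gata2+/f and the feedback genes Tnfaip3, Zc3h12a and Tnip1 lower. Log2 fold changes of the adaptor, kinase and subunit genes between them ran from −1.34 (Rel) to 0.81 (Ikbke). Of the 36 genes, 12 had a positive and 24 a negative log2 fold change (Gata2+/f minus Gata2+/+), with a median of −0.38. Over all 15432 genes 51.1% were positive, 48.9% were negative and the median was 0.019. edgeR's quasi-likelihood test gave no gene of the table an adjusted p below 0.05 (0% of genes called; 22.6% had an unadjusted p below 0.05), and the smallest adjusted p of a member was 0.108. At an unadjusted p under 0.05, 4 members lay above and 7 below, which is 11.1% and 19.4% of the list beside 11.1% and 11.5% of all genes. Sex was uneven between the groups, with 1 male in Gata2+/+ (replicate 3) and 2 in Gata2+/f (replicates 7 and 9) by Xist and Y-linked transcripts. Without Gata2+/+ replicate 3 or Gata2+/f replicate 11 that group held 1 sex, so library and sex cannot be told apart there. With sex as a covariate 3 members lay above and 5 below (9.07% and 9.31% of all genes): Tnfaip2, Ikbkg, Ikbkb and Irak2 no longer passed, and Rela did. DESeq2 called 5 members at adjusted p under 0.05, Tlr2, Tlr4 and Tlr7 as higher and Tnfaip3 and Zc3h12a as lower. That is 13.9% of the list, near the 11.7% it called of all genes (6.05% higher and 5.68% lower). Groups did not overlap for 3 members with higher and 8 with lower values in Gata2+/f (8.33% and 22.2% of the list; 13.1% and 16.6% of all genes). Together these were 30.6% of the list and 29.7% of all genes.

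**Figure D1:**
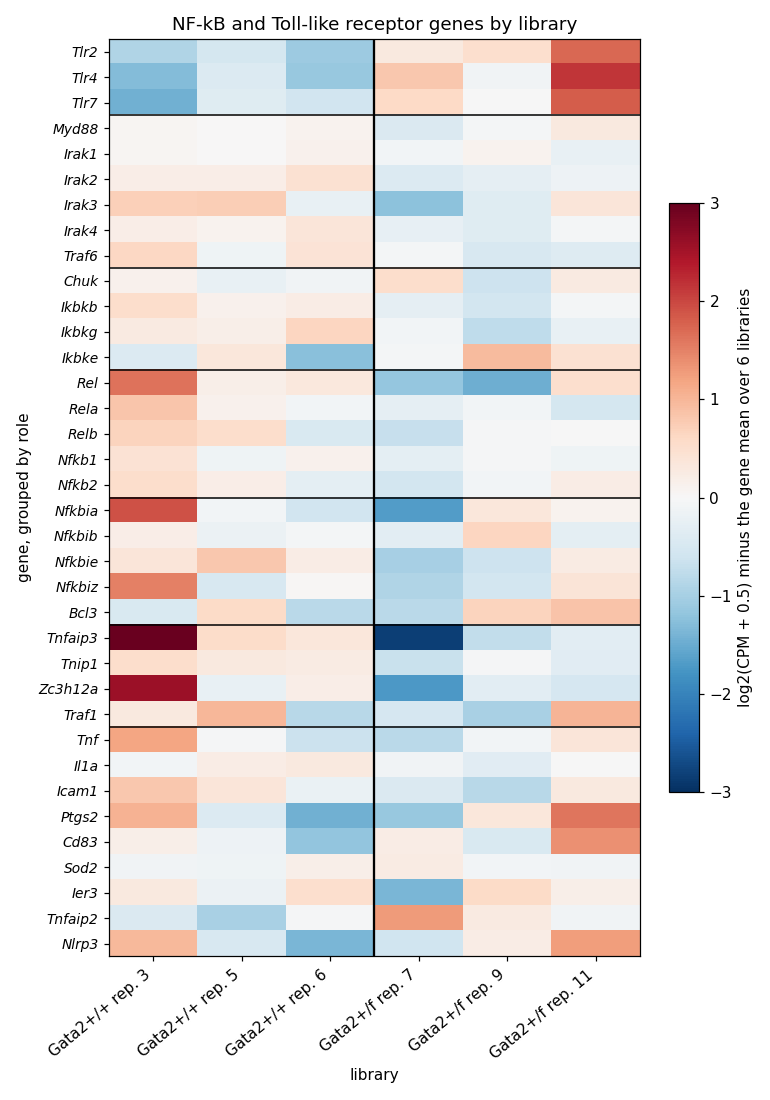
Each row is a gene, grouped by role from receptors at the top to effectors at the bottom, and each column a library; colour gives log2(CPM + 0.5) minus the gene's mean over the 6 libraries, saturating at 3 in either direction. The receptors are reddest in Gata2+/f replicate 11 and near neutral in replicate 9 for Tlr4 and Tlr7, and Gata2+/+ replicate 3 holds the darkest red among the IkB and feedback genes.

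The 3 receptors were each higher in every Gata2+/f library than in any Gata2+/+ library, as were 13.1% of all genes. Tlr2, a receptor of bacterial lipoproteins on the cell surface (chromosome 3, 83836272 to 83841767), had 5.30, 7.05 and 4.66 CPM in Gata2+/+ replicates 3, 5 and 6 and 12.97, 14.9 and 35.6 CPM in Gata2+/f replicates 7, 9 and 11. Replicate 11 stood highest, and a clear gap separated 7.05 from 12.97 CPM. The log2 fold change was 1.90 (SE 0.47), with an edgeR adjusted p of 0.108 and a DESeq2 adjusted p of 0.00341. Tlr4, the lipopolysaccharide receptor, had 1.58, 3.35 and 1.82 CPM against 8.35, 4.19 and 21.9 CPM. Its groups were separated only narrowly, between 3.35 and 4.19 CPM, and replicate 11 was again the highest. The log2 fold change was 2.35 (SE 0.68; edgeR adjusted p = 0.132, DESeq2 adjusted p = 0.00714). Tlr7, which senses single-stranded RNA in endosomes, had 1.90, 4.51 and 3.86 CPM against 9.34, 5.92 and 22.2 CPM (log2 fold change 1.87, SE 0.60; edgeR adjusted p = 0.152, DESeq2 adjusted p = 0.0221). Per merged exon length the summed level of the 3 receptors was 5.84 to 11.7 TPM (a level scaled to gene length and to the same sum in every library) in Gata2+/+ and 20.3 to 58.5 TPM in Gata2+/f. Tlr2 made up 60.9% ± 8.11 and 59.4% ± 8.62 of that sum (SD, n = 3 each), a difference smaller than either SD.

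Gata2+/f replicate 11 set much of the size of the receptor differences. Without it the log2 fold changes were 1.34 for Tlr2, 1.51 for Tlr4 and 1.19 for Tlr7. Tlr2 and Tlr4 then kept an unadjusted p below 0.05 in edgeR's test and Tlr7 did not (edgeR adjusted p = 0.118, 0.187 and 0.237). In that fit 3 members were higher by this criterion, Tnfaip2 being the other one, beside 12% of all genes, and 7 were lower beside 11.6%. Markers of monocytes and macrophages also lay higher in Gata2+/f. Their summed level was 656, 1789 and 618 CPM in Gata2+/+ replicates 3, 5 and 6 and 1844, 3068 and 5423 CPM in Gata2+/f replicates 7, 9 and 11. With all libraries fitted, 10 of these 14 markers were higher by an unadjusted p below 0.05 in edgeR's test, beside 11.1% of all genes. By the same p 0 were lower, beside 11.5%, and 0 were at 0 in any library. The dendritic cell list summed to 244, 634 and 143 CPM in Gata2+/+ replicates 3, 5 and 6. In Gata2+/f replicates 7, 9 and 11 it summed to 616, 460 and 1134 CPM. Of its 10 markers, 6 were higher and 0 lower by that p, again with all libraries fitted. Within Gata2+/f, this list was lowest in replicate 9, as were Tlr4 and Tlr7. The monocyte list was lowest in replicate 7, as was Tlr2. Late neutrophil markers were higher too, as given above. The part of any of these cells in the receptor values was not tested. Tlr7 is X-linked, and with sex as a covariate its log2 fold change was 2.21. Replicate 11, where Tlr7 was highest, was the only female Gata2+/f library.

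**Figure D2:**
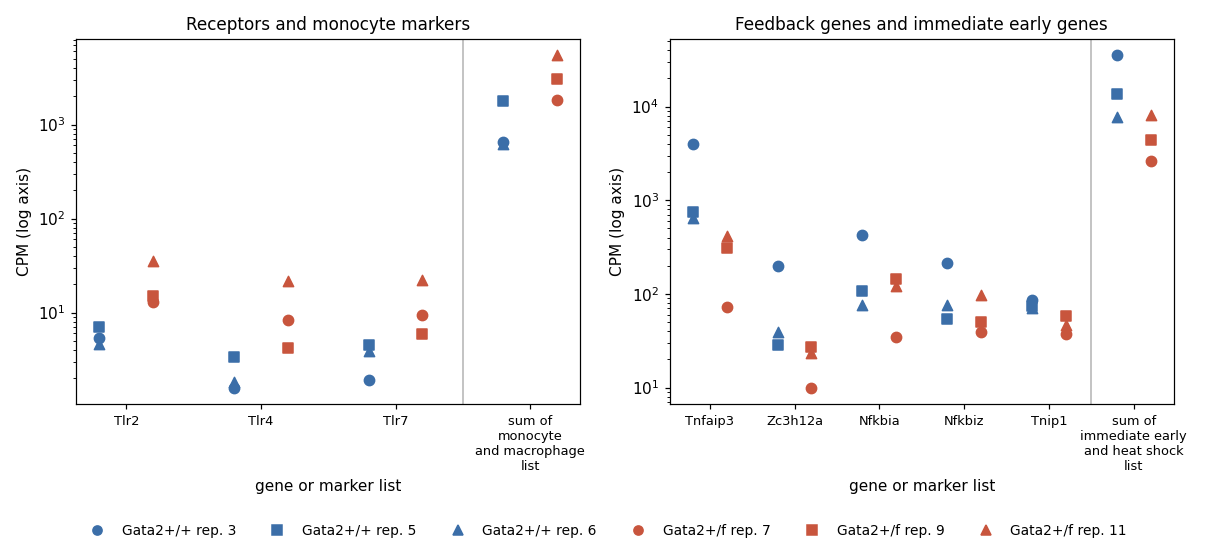
CPM on a log axis, 1 point per library, blue for Gata2+/+ and red for Gata2+/f; the last position of each panel is the summed CPM of a marker list. Left, receptors and monocyte markers are higher in red; right, Gata2+/+ replicate 3 (blue circle) is the highest point for all 5 feedback genes and for the immediate early and heat shock list.

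Downstream of the receptors, the adaptor and kinases lay level or lower. Myd88, the adaptor shared by most of these receptors, had 92.5, 89.3 and 95.6 CPM in the Gata2+/+ libraries and 64.6, 84.2 and 109 CPM in Gata2+/f, and the groups overlapped (log2 fold change −0.11; 95% interval −0.66 to 0.44). Irak1, a kinase that relays the signal to Traf6, had 148, 144 and 156 against 136, 155 and 123 CPM (−0.11; −0.56 to 0.34). The upper bounds of both intervals lie below the log2 fold change of each receptor. Irak2, a kinase homologue that sustains signalling, had 30.4, 30.5 and 36.5 against 19.8, 22.0 and 23.9 CPM, with no overlap (−0.57, SE 0.23; edgeR adjusted p = 0.203). Irak4, the kinase closest to Myd88, had 48.7, 45.9 and 54.5 against 35.3, 33.0 and 40.4 CPM, with no overlap either (−0.46, SE 0.21). Irak4 lies on chromosome 15, where the median gene stood 0.34 and 0.36 (log2) above its own median over the libraries in Gata2+/+ replicates 3 and 6. Traf6 had 99.3, 58.7 and 85.1 against 61.7, 45.7 and 49.2 CPM (−0.64, SE 0.26), and its groups overlapped through Gata2+/+ replicate 5. Irak3, which restrains the pathway, varied within both groups, from 28.8 to 57.4 CPM and from 14.2 to 43.6 CPM. Per length, Irak1 was the leading IRAK transcript with 84.3 ± 9.73 and 83.2 ± 10.53 TPM (mean ± SD, n = 3 each). It made up 51.3% ± 3.39 of the IRAK total in Gata2+/+ and 59.9% ± 7.91 in Gata2+/f.

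The 4 IKK genes split. Ikbkb, the catalytic kinase of the classical pathway, had 225, 170 and 184 CPM in the Gata2+/+ libraries and 129, 107 and 151 CPM in Gata2+/f, with no overlap (log2 fold change −0.58, SE 0.23; edgeR adjusted p = 0.197). Ikbkg, the NEMO scaffold, had 77.8, 73.4 and 102 against 61.1, 37.9 and 55.9 CPM, also with no overlap (−0.71, SE 0.26; edgeR adjusted p = 0.179). Ikbkg is X-linked, and with sex as a covariate it stood at −0.65 (edgeR adjusted p = 0.294). Chuk, the kinase of the alternative pathway, had 60.9, 47.6 and 51.9 against 81.2, 36.3 and 67.9 CPM (0.21, SE 0.32), and its Gata2+/f values enclosed the Gata2+/+ ones. Ikbke, an IKK-related kinase of antiviral signalling, had 32.5, 55.1 and 17.8 against 41.6, 83.5 and 59.4 CPM (0.81, SE 0.44), with overlapping groups. Chromosome 8, which carries Ikbkb, had a median shift of 0.42 (log2) in Gata2+/f replicate 7, and Ikbkb there was the middle value of its group.

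Set against each other per length, the IKK transcripts summed to 92.5 TPM in Gata2+/+ and 91.2 TPM in Gata2+/f, while their shares differed. Ikbkb took 26.7% to 32.0% of the sum in Gata2+/+ and 19.4% to 22.8% in Gata2+/f. Ikbkg took 25.9% to 36.5% and 17.5% to 21.6%. Neither share overlapped between the groups. Ikbke took 11.3% ± 6.40 and 22.3% ± 11.1, with overlap. These shares are descriptive and show unequal differences within the set, not which transcript changed. Merged exons of Ikbkb, Ikbke and Ikbkg span 19078, 9018 and 8110 bases over all annotated transcripts, and a shorter transcript in use would raise the level given for any of them.

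**Figure D3:**
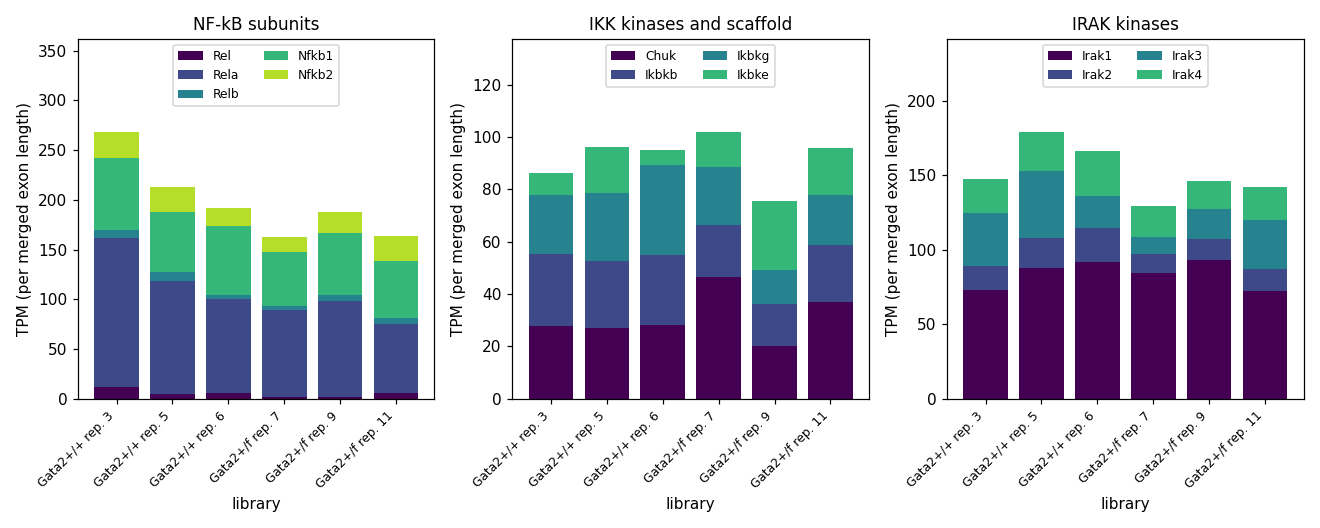
Stacked bars give TPM per library for the NF-kB subunits, the IKK genes and the IRAK kinases, each gene in its own colour. Rela and Nfkb1 form most of each subunit bar, and the IKK bars have similar heights in both groups but a smaller Ikbkb and Ikbkg part in Gata2+/f.

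All 5 NF-kB subunit genes had negative log2 fold changes, and in the fit of all libraries without covariates 0 of 5 reached an unadjusted p under 0.05 (edgeR). Rela, the main transactivating subunit, had 198, 121 and 105 CPM in the Gata2+/+ libraries and 91.5, 104 and 76.3 CPM in those of Gata2+/f (−0.64, SE 0.29; edgeR adjusted p = 0.237). The groups were separated by less than 1 CPM, since 105.3 in Gata2+/+ replicate 6 met 104.5 in Gata2+/f replicate 9. Its log2 fold change was −0.79 with sex as a covariate and −0.78 without Gata2+/+ replicate 6, both with an unadjusted p below 0.05, and −0.27 without Gata2+/+ replicate 3. Nfkb1, the precursor of p50, had 374, 250 and 303 against 226, 268 and 253 CPM (−0.31, SE 0.23). Rel, a subunit best known from lymphocytes and activated macrophages, had 36.2, 12.9 and 14.1 against 4.82, 3.78 and 16.4 CPM (−1.34, SE 0.67), and Gata2+/f replicate 11 lay among the Gata2+/+ values. Without that library Rel stood at −2.24, with an unadjusted p below 0.05, and without Gata2+/+ replicate 3 at −0.64. Relb and Nfkb2, the pair of the alternative pathway, had log2 fold changes of −0.57 and −0.30 with overlapping groups. Per length, Rela was the most abundant subunit transcript, with 120 ± 28.2 and 84.0 ± 14.1 TPM. Nfkb1 followed with 67.2 ± 6.60 and 58.6 ± 4.14 TPM and Nfkb2 with 22.9 ± 4.84 and 20.2 ± 4.77 TPM. Rel and Relb were lowest, at 7.16 ± 3.57 and 7.33 ± 2.63 TPM in Gata2+/+, and did not differ from each other beyond their spread.

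In the IkB family, the signs of Nfkbia and Nfkbiz turned when Gata2+/+ replicate 3 was left out. Nfkbia, the classical IkB that binds NF-kB in the cytoplasm (chromosome 12), had 425, 107 and 75.5 CPM in Gata2+/+ replicates 3, 5 and 6 and 35.1, 144 and 121 CPM in Gata2+/f replicates 7, 9 and 11. Replicate 3 stood far above the next library at 144 CPM, and the other libraries of both groups were intermixed. The log2 fold change of −1.02 (SE 0.74; edgeR adjusted p = 0.431) became 0.18 without replicate 3. Nfkbiz, a nuclear IkB that promotes secondary response genes, had 216, 53.9 and 76.7 against 39.6, 50.7 and 98.5 CPM, with the same library on top. Its log2 fold change was −0.87 with all libraries and 0.0039 without replicate 3. Nfkbie had 34.5, 47.6 and 31.3 against 13.2, 17.2 and 31.7 CPM (−0.87, SE 0.37; edgeR adjusted p = 0.223), where Gata2+/f replicate 11 reached the Gata2+/+ range. Nfkbib (0.085) and Bcl3, a nuclear IkB that binds p50 and p52 dimers (0.54), had overlapping groups and 95% intervals across 0.

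Of the 4 feedback and other regulators, 3 lay lower in all Gata2+/f libraries. Tnfaip3 encodes A20, the ubiquitin-editing brake on Traf6 and RIPK signalling (chromosome 10, 19000910 to 19015657). It had 4003, 756 and 647 CPM in the Gata2+/+ libraries and 72.5, 308 and 414 CPM in Gata2+/f. Gata2+/+ replicate 3 was 6.19-fold above the lowest library of its own group, and Gata2+/f replicate 7 was the lowest of all. The log2 fold change was −2.77 (SE 0.90), with an edgeR adjusted p of 0.154 and a DESeq2 adjusted p of 0.0145. Zc3h12a encodes Regnase-1, an RNase that degrades inflammatory mRNAs, and had 201, 28.8 and 38.8 against 9.93, 27.0 and 23.5 CPM (−2.15, SE 0.78; edgeR adjusted p = 0.176, DESeq2 adjusted p = 0.0438). Apart from replicate 3 its groups nearly touched, at 28.8 and 27.0 CPM. Tnip1, an A20-binding adaptor, was far more even: 86.0, 73.5 and 71.1 against 37.5, 58.8 and 47.0 CPM (−0.69, SE 0.24; edgeR adjusted p = 0.166, DESeq2 adjusted p = 0.101). Traf1, a receptor-associated adaptor, was low and overlapping, at 2.44 to 9.96 and 2.17 to 10.03 CPM.

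Without Gata2+/+ replicate 3, Tnfaip3 stood at −1.35 (edgeR adjusted p = 0.410), Zc3h12a at −0.69 (0.519) and Tnip1 at −0.55 (0.438). In that fit 0 of the 36 genes were lower at an unadjusted p under 0.05, beside 6.51% of all genes, and 3 were higher, the receptors, beside 6.89%. The median of the list was then −0.084, against 0.093 for all genes. Replicate 3 was the highest of the 6 libraries for 14 of the 36 genes (38.9%; 18.6% of all tested genes), and Gata2+/f replicate 7 the lowest for 16 (44.4%; 18.9%). Replicate 3 also had the lowest TMM factor, 0.821. The immediate early and heat shock list, which marks recent stimulation or stress of cells, summed to 35138, 13496 and 7745 CPM in Gata2+/+ replicates 3, 5 and 6 and to 2616, 4410 and 8139 CPM in Gata2+/f replicates 7, 9 and 11. Thus replicate 3 and replicate 7 were the extremes of that sum too. The heat shock genes of the list were not lowest in replicate 7. Hspa1a and Hsph1 were lowest in Gata2+/+ replicate 6, Hspa1b in Gata2+/f replicate 9 and Dnajb1 in Gata2+/f replicate 11. In the fit of all libraries, 8 of the list's 14 genes were lower and 0 higher at an unadjusted p under 0.05. Over all genes these shares were 11.5% and 11.1%. None of the 14 was at 0 in any library. The part of this list in the feedback genes was not tested. Leaving out other libraries also moved the count of lower members, to 4 (11.1%) when Gata2+/+ replicate 6 was dropped and to 3 (8.33%) when either Gata2+/f replicate 7 or 9 was. Over all genes the share that lay lower was 7.31%, 8.53% and 9.29% in these fits. The share of members was thus above it without Gata2+/+ replicate 6 and slightly below it without Gata2+/f replicate 7 or 9. Among the fits that left out a library, Tnfaip3 kept an unadjusted p below 0.05 in each except that without Gata2+/+ replicate 3, while Irak2 kept it only without Gata2+/f replicate 11. Without Gata2+/f replicate 11 the count was 7 again, but of these Tnfaip3, Ikbkb and Irak2 were shared with the fit of all libraries, while Irak3, Rel, Nfkbie and Icam1 came in.

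**Figure D4:**
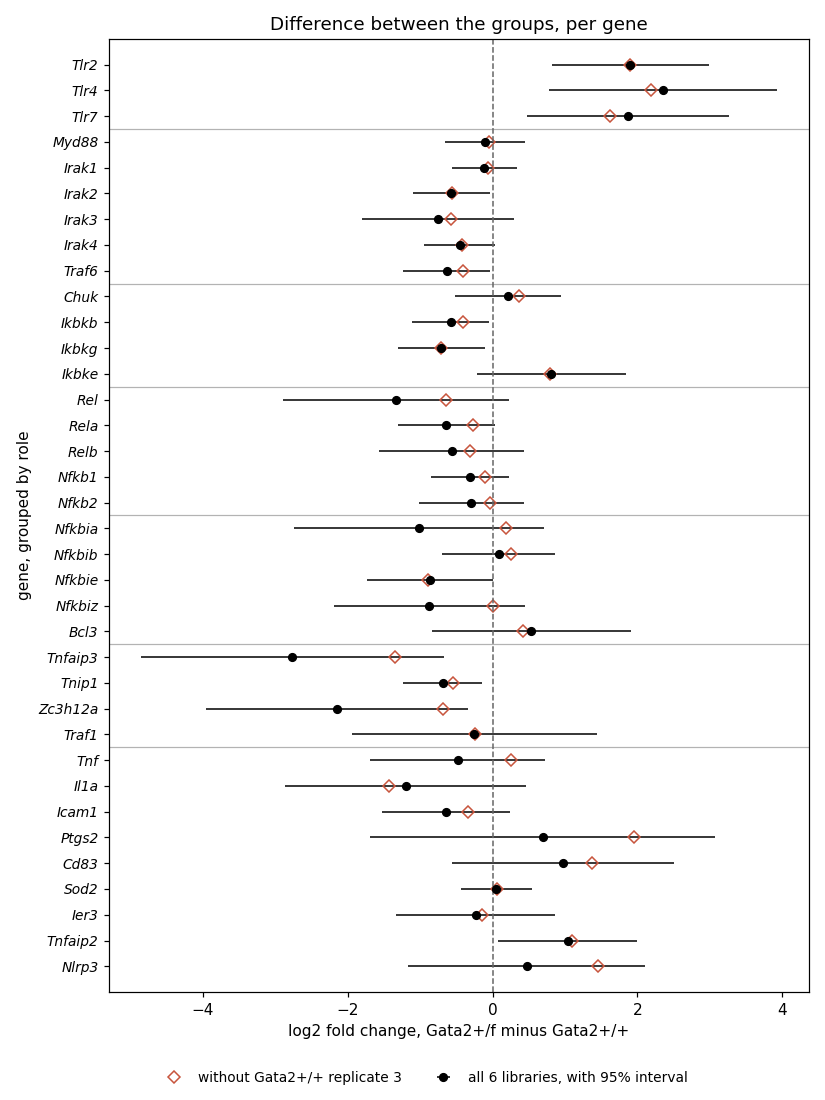
Black points give the log2 fold change of each gene with its 95% interval from edgeR's fit of all 6 libraries; open red diamonds give the value without Gata2+/+ replicate 3. The receptors stay between 1.62 and 2.19 without it, while Tnfaip3, Zc3h12a, Nfkbia and Nfkbiz shift to the right.

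The induced effector genes showed no common direction: 5 of 9 were positive and 4 negative, with a median of 0.051 and overlapping groups for all 9. Tnfaip2, an endothelial and myeloid gene first found as TNF-induced, was the only one at an unadjusted p under 0.05 in edgeR's test. It had 68.9, 46.6 and 90.6 CPM in the Gata2+/+ libraries and 226, 112 and 86.0 CPM in those of Gata2+/f (1.04, SE 0.41; edgeR adjusted p = 0.199), and 0.57 without replicate 7. Tnf, the cytokine itself, had 55.5, 23.7 and 15.4 against 13.5, 22.9 and 31.2 CPM (−0.48, SE 0.52). Replicate 3 was again the highest, and the sign turned without it. Icam1, an adhesion molecule, had 64.7, 47.8 and 32.1 against 27.1, 20.3 and 44.8 CPM (−0.65, SE 0.38). Sod2, the mitochondrial superoxide dismutase, was among the most even members, at 53.9 to 66.6 and 55.3 to 70.3 CPM (0.051; 95% interval −0.44 to 0.55). Ier3, an early survival gene, had 16.3 CPM in Gata2+/f replicate 7 and 37.8 to 64.6 CPM in the other libraries. Nlrp3, the inflammasome sensor whose transcript NF-kB primes, had 25.4, 8.97 and 4.59 against 8.23, 14.8 and 31.0 CPM. The high libraries were replicate 3 in one group and replicate 11 in the other. Ptgs2 (cyclooxygenase 2) followed that order, at 4.98, 1.51 and 0.483 against 0.707, 2.87 and 7.67 CPM, and Cd83, a surface marker of mature dendritic cells, was also highest in these libraries of each group (4.16 and 10.2 CPM). Il1a was close to absent, with 7, 17.5 and 21 counts against 9.24, 2.26 and 11 counts per library, where 3 counts correspond to 0.0442 to 0.0558 CPM. The log2 fold change of Il1a was −1.20, with a 95% interval of −2.86 to 0.46 that spans 0, so no direction can be read.

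Of 119 other pathway genes, 115 were tested, and 31 were higher and 14 lower by unadjusted p (27.0% and 12.2%, beside 11.1% and 11.5% of all genes). edgeR's test gave none an adjusted p below 0.05, and DESeq2 called 23 higher and 6 lower (20% and 5.22%, beside 6.05% and 5.68% of all genes). All 14 further Toll-like receptors, co-receptors and chaperones had positive log2 fold changes, the smallest being 0.028 and 0.057. Of the 14, 8 had an unadjusted p below 0.05 (57.1%, beside 11.1% of all genes). Groups did not overlap for 4 (28.6%, beside 13.1% of all genes with higher values). Without Gata2+/f replicate 11, Tlr1, Tlr8, Tlr13 and Cd14 lost an unadjusted p below 0.05 in edgeR's test. These genes and Hsp90b1 also lost it without Gata2+/+ replicate 6. Tlr1, Tlr8 and Tlr13 lost it without Gata2+/+ replicate 3 too, and Tlr1, Tlr8 and Cd14 in further fits that left out a library. For the genes named from here on, those with the smallest p in each group, standard errors of the log2 fold change were 0.22 to 0.85. Unc93b1, which carries endosomal receptors to their compartment, had 47.9 ± 25.1 CPM in the Gata2+/+ libraries and 172 ± 62.0 CPM in those of Gata2+/f (1.84). Tlr3, the double-stranded RNA receptor, was low throughout, at 0.129 ± 0.101 and 1.49 ± 1.01 CPM.

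Among other transducers, 6 of 22 lay higher (27.3%, beside 11.1% of all genes) and 3 lower (13.6%, near the 11.5% of all genes) by that criterion. The adaptor Pik3ap1 (2.07) and the Tbk1-binding Tbkbp1 (2.29) were higher, and the kinase Tbk1 (−0.86) and the TAK1 adaptor Tab2 (−0.85) lower. In the TNF and IL-1 receptor arm 5 of 21 were higher (23.8%, beside 11.1% of all genes), led by the receptor chains Il18rap (1.98) and Tnfrsf1a (1.87). Another 3 were lower (14.3%, near 11.5% of all genes), led by the ubiquitin ligases Birc3 and Birc2. Birc3, itself an NF-kB target, had 103 ± 19.4 and 44.3 ± 13.4 CPM (−1.21), and −1.23 without replicate 3. In the CARD arm 1 of 7 was higher (14.3%, near 11.1% of all genes) and 2 lower (28.6%, beside 11.5%). The scaffold Card9 was higher (1.87), and Bcl10 (−1.04) and the protease Malt1 (−0.90), the partners that form 1 complex, were lower.

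Of 17 inhibitors outside the member list 2 were higher (11.8%, near the 11.1% of all genes) and 4 lower (23.5%, beside 11.5%). The decoy receptor Il1r2 (1.97) and Commd1 (0.76) were higher, and Tax1bp1, an A20 partner, was lower at 359 ± 105 and 173 ± 16.4 CPM (−1.05), as was the deubiquitinase Otud7b (−0.79). Of 11 inflammasome genes 3 were higher (27.3%, beside 11.1% of all genes) and 1 lower (9.09%, below the 11.5% of all genes). Il1b was at 6.49 ± 2.30 and 27.5 ± 16.7 CPM (2.08) and Casp1 at 5.91 ± 4.14 and 21.4 ± 7.65 CPM (1.86), and the Nlrp3 cofactor Nek7 was lower (−1.14). Of 25 tested genes in the list of further NF-kB targets 6 were higher (24%, beside 11.1% of all genes) and 2 lower (8%, below 11.5%). The higher ones were led by the receptor Gpr84 (2.26) and the survival gene Bcl2a1a (2.67), which has near-identical copies. The 2 lower ones were Malt1 and Sqstm1, the p62 adaptor, at 910 ± 816 and 148 ± 4.56 CPM (−2.61; −1.51 without replicate 3). Single libraries moved several of these values. Without Gata2+/+ replicate 5 the log2 fold change was 2.80 for Pik3ap1, 2.57 for Tnfrsf1a, 2.63 for Card9, 2.60 for Casp1, 4.25 for Tlr3 and 3.36 for Bcl2a1a, against 3.50 for Tlr3 with all libraries, and Tlr3 stood at 2.88 without Gata2+/f replicate 7. Tab2, Malt1, Nek7, Otud7b and Card9 each lost an unadjusted p below 0.05 in at least 1 of the fits that left out a library.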

How the data were processed

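Poly-A selected, stranded libraries were sequenced from sorted c-kit+ marrow. Per the submitters' processing notes, CASAVA 1.8.2, STAR 2.5.4a, RSEM 1.3.0 and GRCm38 were used, and the deposited values are RSEM expected counts per Ensembl gene, not normalized (11.7% not whole). Annotation release and strand setting are not given in the sources used here: 12 members share exon bases with a gene on the other strand, and 6 had non-whole counts, so these are less certain. GENCODE M21 (GRCm38) supplied symbols for 97.5% of IDs, positions and merged exon lengths for TPM.

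Counts were rounded, filtered by filterByExpr (edgeR 4.0.16, R 4.3.3, minimum count 10), TMM-scaled and tested with glmQLFTest, two-sided, adjusted by Benjamini-Hochberg over all tested genes. Alternatives were DESeq2 1.42.0, limma 3.58.1 voom, other scalings and filters, a sex covariate and leaving out each library. Tests were tried on simulated data with few changed genes, a trial that does not decide between the calls of edgeR and DESeq2 here. Pairs of libraries differed beyond sampling noise (chi-square per gene 240 or more). Members, lists and the naming rule (all members, Gata2, Kit, and up to 2 higher and 2 lower genes with the smallest unadjusted p per group of other pathway genes) were chosen with earlier results of these data known. Tlr1, Tlr8, Tlr13, Cd14, Hsp90b1 and the heat shock genes are named outside this rule. Counting intervals are not given. With 3 libraries a group, no library was tested as an outlier.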

Additional observations from a re-analysis of the deposited data

How the results depend on the processing

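No paired analysis was possible because the groups share no replicate numbers. edgeR's main test called 0 genes (3486 at an unadjusted p under 0.05). DESeq2 called 933 higher and 876 lower, no filter beyond 1 count 10 and 9, the newer quasi-likelihood form 13 and 19, and limma voom and the sex covariate each 8 and 1. Leaving out 1 library gave 0 to 10 higher and 0 to 56 lower. The members numbered 4 higher and 7 lower by unadjusted p. With the sex covariate they numbered 3 and 5. Leaving out 1 library gave 3 to 5 higher, 0 to 7 lower and a median of −0.49 to −0.084. No member changed sign with another scaling, filter or tool, and a filter of 1 CPM in 3 libraries removed 1 (Il1a). With the sex covariate Nfkbib stood at −0.076. Signs turned without Gata2+/+ replicate 3 for Nfkbia (0.18), Nfkbiz (0.0039) and Tnf (0.25); without Gata2+/+ replicate 5 for Nfkbib (−0.00059), Traf1 (0.29) and Sod2 (−0.0099); without Gata2+/f replicate 7 for Myd88 (0.11), Traf1 (0.043), Sod2 (−0.025) and Ier3 (0.20); without Gata2+/f replicate 9 for Nfkbib (−0.25) and Traf1 (0.16); and without Gata2+/f replicate 11 for Irak1 (0.0019), Ptgs2 (−0.34) and Nlrp3 (−0.13). At the other end of the leave-one-out range stood Myd88 (−0.27), Irak1 (−0.15), Nfkbia (−1.37), Nfkbib (0.29), Nfkbiz (−1.31), Traf1 (−1.16), Tnf (−0.77), Ptgs2 (1.95), Sod2 (0.19), Ier3 (−0.59) and Nlrp3 (1.45). The cause was not tested. With upper quartile factors the median of all genes was 0.11, and 58.3% of genes at an unadjusted p under 0.05 were higher, against 49.3% with TMM.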

Other observations

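The values here were chosen after they were seen. Several stress and immediate early genes were far higher in Gata2+/+ replicate 3 than elsewhere. Fosb, an AP-1 subunit, was at 11995 CPM there and at 432 to 1862 CPM in the other 5 libraries. The inducible heat shock gene Hspa1a was at 796 CPM against 3.08 to 130 CPM, and its co-chaperone Dnajb1 at 1289 CPM against 99.0 to 200.1 CPM. Tollip, an adaptor that restrains receptor signalling, was at 496 CPM there and at 71.7 to 137 CPM in the other libraries. Il6, a cytokine gene of the pathway, had 36.5, 27.4 and 13.9 CPM in Gata2+/+ replicates 3, 5 and 6 and 0.311, 2.06 and 13.8 CPM in Gata2+/f replicates 7, 9 and 11. Its groups were thus just apart, with a log2 fold change of −2.27 (SE 1.13; edgeR adjusted p = 0.272).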
